A study of Mus musculus with 22 samples.

Results

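Loss of Wt1 was examined in mouse embryonic fibroblasts (MEFs), which are cultured directly from embryos, in which a mutant oncogene was active. The comparison took 12 of the 22 arrays of the series by their titles: 7 arrays of cells with the mutant oncogene and no Wt1, called double arrays, and 5 arrays of cells with the mutant oncogene and intact Wt1, called oncogene arrays (replicates 1, 3, 4, 5 and 6). Cells of both groups were infected with an adenovirus carrying Cre recombinase and harvested for RNA at day 7. In the oncogene cells Cre removed a stop cassette before the mutant oncogene, in the Wt1-null cells it deleted loxP-flanked (f/f) Wt1 alleles, and in the double cells it did both. The other 10 arrays were 5 of Wt1-null MEFs given Cre and 5 of wild type control MEFs given an adenovirus carrying GFP, which were used for the spread between arrays and as background. The sources used here do not say how many embryos or cultures the replicates came from, nor what share of the cells each virus reached. All levels are log2 values after the array normalization RMA, each gene was read from its probe set with the highest mean, and differences are double minus oncogene group means, given ± the standard error (SE) from limma.

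Wt1 encodes a DNA-binding protein with zinc fingers that is needed for kidney and gonad development, and primary fibroblasts that carry an active oncogene can either keep dividing or leave the cell cycle for senescence. Cells that leave the cycle lower genes of S phase through E2F and Rb family proteins, which bind E2F sites in promoters. They lower genes of G2 and mitosis through the DREAM and MuvB complexes, which bind the CHR element, often beside a CCAAT box bound by NF-Y.

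Promoters of the mitosis and DNA replication genes are shown because these lists had the lowest and the third lowest median of the 40 lists described below. The sequences are RefSeq windows of 300 bases, from 250 before to 50 after the gene start, mouse build GRCm38.p6, printed 5′ to 3′ on the strand of the gene. For mitosis they are from the 3 genes with the smallest p whose window held both a CCAAT box and a CHR. Kif4 lies at chrX:100625815-100626114 (plus strand), Spag5 at chr11:78301341-78301640 (plus) and Prc1 at chr7:80294201-80294500 (plus). Capitals mark CCAAT or its reverse complement ATTGG, and the CHR letters TTTGAA or TTCAAA.
Kif4: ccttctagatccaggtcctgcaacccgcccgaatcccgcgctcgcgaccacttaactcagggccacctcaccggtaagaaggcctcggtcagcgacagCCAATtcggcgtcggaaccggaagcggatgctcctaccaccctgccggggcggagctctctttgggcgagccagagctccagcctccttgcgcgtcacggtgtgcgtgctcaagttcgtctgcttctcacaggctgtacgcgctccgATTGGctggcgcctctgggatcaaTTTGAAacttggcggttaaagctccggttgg
Spag5: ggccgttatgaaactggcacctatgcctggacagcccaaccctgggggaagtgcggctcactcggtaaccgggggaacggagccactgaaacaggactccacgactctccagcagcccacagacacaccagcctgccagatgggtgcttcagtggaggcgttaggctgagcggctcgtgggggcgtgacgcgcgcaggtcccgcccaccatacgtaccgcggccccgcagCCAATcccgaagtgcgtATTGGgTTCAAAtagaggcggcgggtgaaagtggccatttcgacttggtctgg
Prc1: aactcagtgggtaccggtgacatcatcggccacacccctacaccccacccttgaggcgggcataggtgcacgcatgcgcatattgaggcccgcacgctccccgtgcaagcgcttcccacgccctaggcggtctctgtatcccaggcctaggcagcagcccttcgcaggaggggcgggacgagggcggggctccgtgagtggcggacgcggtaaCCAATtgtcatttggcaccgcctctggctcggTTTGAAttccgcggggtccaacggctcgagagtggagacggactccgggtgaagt

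For DNA replication the windows are from the 3 genes with the smallest p whose window held an E2F word, which was TTTCCCGC, TTTGGCGC or TTTCGCGC or a reverse complement (GCGGGAAA, GCGCCAAA or GCGCGAAA). Gins3 lies at chr8:95633309-95633608 (plus strand), Mcm6 at chr1:128359656-128359955 (minus) and Mcm7 at chr5:138171834-138172133 (minus). Capitals mark E2F words, CCAAT boxes and CHR letters on both strands, and near the end of the Mcm7 window an E2F word overlaps a CCAAT box. Overlapping E2F words were marked once. In the Mcm6 window the first marked TTTGGCGC runs into an overlapping GCGCGAAA, whose end was left in lower case.
Gins3: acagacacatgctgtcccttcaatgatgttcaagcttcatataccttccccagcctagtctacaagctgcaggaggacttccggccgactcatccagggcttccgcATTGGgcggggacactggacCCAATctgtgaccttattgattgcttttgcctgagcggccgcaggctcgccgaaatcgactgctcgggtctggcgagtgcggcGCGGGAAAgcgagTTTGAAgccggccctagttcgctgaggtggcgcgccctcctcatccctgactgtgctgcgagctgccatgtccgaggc
Mcm6: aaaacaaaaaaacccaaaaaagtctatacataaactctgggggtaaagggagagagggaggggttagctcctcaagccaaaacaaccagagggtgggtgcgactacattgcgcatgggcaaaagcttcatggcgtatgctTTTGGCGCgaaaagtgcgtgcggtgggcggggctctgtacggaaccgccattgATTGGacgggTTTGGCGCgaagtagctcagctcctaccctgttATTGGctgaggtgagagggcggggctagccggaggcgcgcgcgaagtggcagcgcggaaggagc
Mcm7: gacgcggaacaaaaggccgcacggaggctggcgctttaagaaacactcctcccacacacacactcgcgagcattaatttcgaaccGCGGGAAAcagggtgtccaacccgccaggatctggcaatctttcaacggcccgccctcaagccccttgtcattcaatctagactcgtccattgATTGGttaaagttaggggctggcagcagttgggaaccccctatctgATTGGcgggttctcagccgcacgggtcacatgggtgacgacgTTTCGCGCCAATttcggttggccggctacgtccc

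RefSeq windows matched 31 of the 38 mitosis genes, with 34 windows. A CHR was in 79.4% of them and a CCAAT box in 76.5%, with both in 70.6%, against 17.9%, 37.4% and 6.95% of all 32851 windows. An E2F word was in 2.94% of the mitosis windows. For DNA replication, 38 windows matched 32 of the 38 genes. Of these 34.2% held an E2F word, against 1.84% of all windows, and 13.2% held a CHR. A CCAAT box was in 55.3% of the DNA replication windows. It was in 58.3% of the p53 target, 37.5% of the lysosome and 23.5% of the fibrillar matrix windows. The letters describe the windows and are not evidence of binding.

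Several features of the arrays bear on the comparison. Wt1 itself read 4.64, 4.67, 4.51, 4.55 and 4.56 in oncogene replicates 1, 3, 4, 5 and 6, and 4.16 at the lowest, 4.41 at the median and 4.77 at the highest of the double arrays. These levels were inside the background range, set as 3.65 to 5.06 by 3 Y-linked genes in 9 arrays with high Xist, so the probe set could not check the deletion. Xist, which coats the silenced X chromosome, was high (above 8.59) in 5 of 7 double arrays (replicates 1, 2, 5, 6 and 7) and in 0 of 5 oncogene arrays. Double replicate 4 and oncogene replicate 4 had the lowest mean correlations with the other arrays, 0.932 and 0.961, followed by double replicate 5 at 0.964. They were each other's nearest array. The 3' to 5' log2 difference of pyruvate carboxylase was 2.97 and 2.73 in them, against 0.85 to 2.27 in the other arrays. For Gapdh (0.12 and 0.11) and Actb (0.28 and 0.33) it was within the range of the other arrays. Double replicate 2 was nearly identical to Wt1-null replicate 2, with an SD of their difference over genes of 0.146, although their labels give different genotypes. Both labels give Wt1 loss, so the Wt1 level could not tell them apart. Whether either label is wrong was not tested, and a wrong label would alter the double or the Wt1-null means. The closest 2 arrays of the comparison, oncogene replicates 5 and 6, had 0.244.

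No single gene separated the double from the oncogene arrays beyond the spread between arrays. Of 18193 genes, 0 (0.0%) passed a Benjamini-Hochberg adjusted p of 0.05 in limma, and the lowest adjusted p was 1.0. At an unadjusted limma p below 0.05 there were 562 genes (3.09%), of which 321 (1.76% of all genes) were lower and 241 (1.32%) higher in double arrays. That count was 1150 without oncogene replicate 4, 330 without oncogene replicate 5 and 370 without double replicate 5. The median difference over all genes was 0.0092, and 46.8% of genes were below 0 and 53.2% above. Differences of at least 1 log2 unit were seen for 73 genes (0.401%). Without the oncogene, Wt1 loss came with a change of virus from GFP to Cre, and these cannot be told apart. The effect of Wt1 loss, so measured, differed between cells with and without the oncogene for 2 genes (0.011%) at a limma adjusted p below 0.05. That count was 0 without Wt1-null replicate 3, 4 or 5, control replicate 2 or 3, or oncogene replicate 6, and 5 without Wt1-null replicate 1. It was also 0 with the near-identical Wt1-null replicates 3 and 4 averaged.

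Genes of mitosis gave the lowest median of the lists. All 38 measured members had a lower mean in double than in oncogene arrays, with a median log2 difference of -0.86 and a range of -1.18 to -0.14. Of these, 29 had an unadjusted p below 0.05, against 1.76% of all genes in the same direction, and 0 passed the adjusted threshold. In a bulk sample, fewer cells of a type and less RNA per cell cannot be told apart. The mean level of the list was 10.53, 10.05, 9.91, 11.04 and 10.83 in oncogene replicates 1, 3, 4, 5 and 6. In double replicates 1 to 7 it was 10.12, 9.26, 10.08, 9.42, 8.64, 10.53 and 9.27. The group means were 10.47 ± 0.48 (SD, n = 5) and 9.62 ± 0.65 (SD, n = 7), a difference of -0.85 against a pooled SD of 0.59. Double replicates 2, 4, 5 and 7 lay below every oncogene array, and double replicates 1, 3 and 6 lay within the oncogene range.

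Kif4, a kinesin of mitotic chromosomes and the spindle midzone, read 9.30, 8.89, 9.0, 9.95 and 9.56 in the oncogene arrays and 7.36, 8.35 and 9.37 at the lowest, median and highest of the double arrays. The difference was -0.87 ± 0.31 (SE; limma adjusted p = 1.0). Double replicate 5 was the lowest, and double replicates 3 and 6 overlapped the oncogene arrays. Birc5, the survivin subunit of the chromosomal passenger complex, read 11.40, 10.97, 10.62, 11.44 and 11.47 against 8.87, 10.08 and 11.21, a difference of -0.94 ± 0.35 (SE). Mki67, whose Ki-67 protein coats mitotic chromosomes and marks dividing cells, read 11.54, 9.99, 9.84, 12.49 and 12.10 against 8.79, 9.95 and 11.60. Its difference of -1.18 ± 0.54 (SE) was the largest of the list, and oncogene replicates 1, 3 and 4 lay among the double arrays.

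Tpx2, a spindle assembly factor that activates Aurora A, differed by -0.86 ± 0.31 (SE), while its 3 other probe sets gave -0.84 to 0.05. Spag5, a spindle and kinetochore protein, differed by -0.91 ± 0.35 (SE), with -0.94 and -0.59 at its other probe sets. At the other end of the list was Bub3, a spindle checkpoint protein needed outside mitosis as well, at -0.14 ± 0.10 (SE). The extremes came from the same few arrays: double replicate 5 was the lowest double array for 22 of the 38 genes, double replicate 6 the highest for 24, and oncogene replicate 5 the highest oncogene array for 26.

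**Figure D1:**
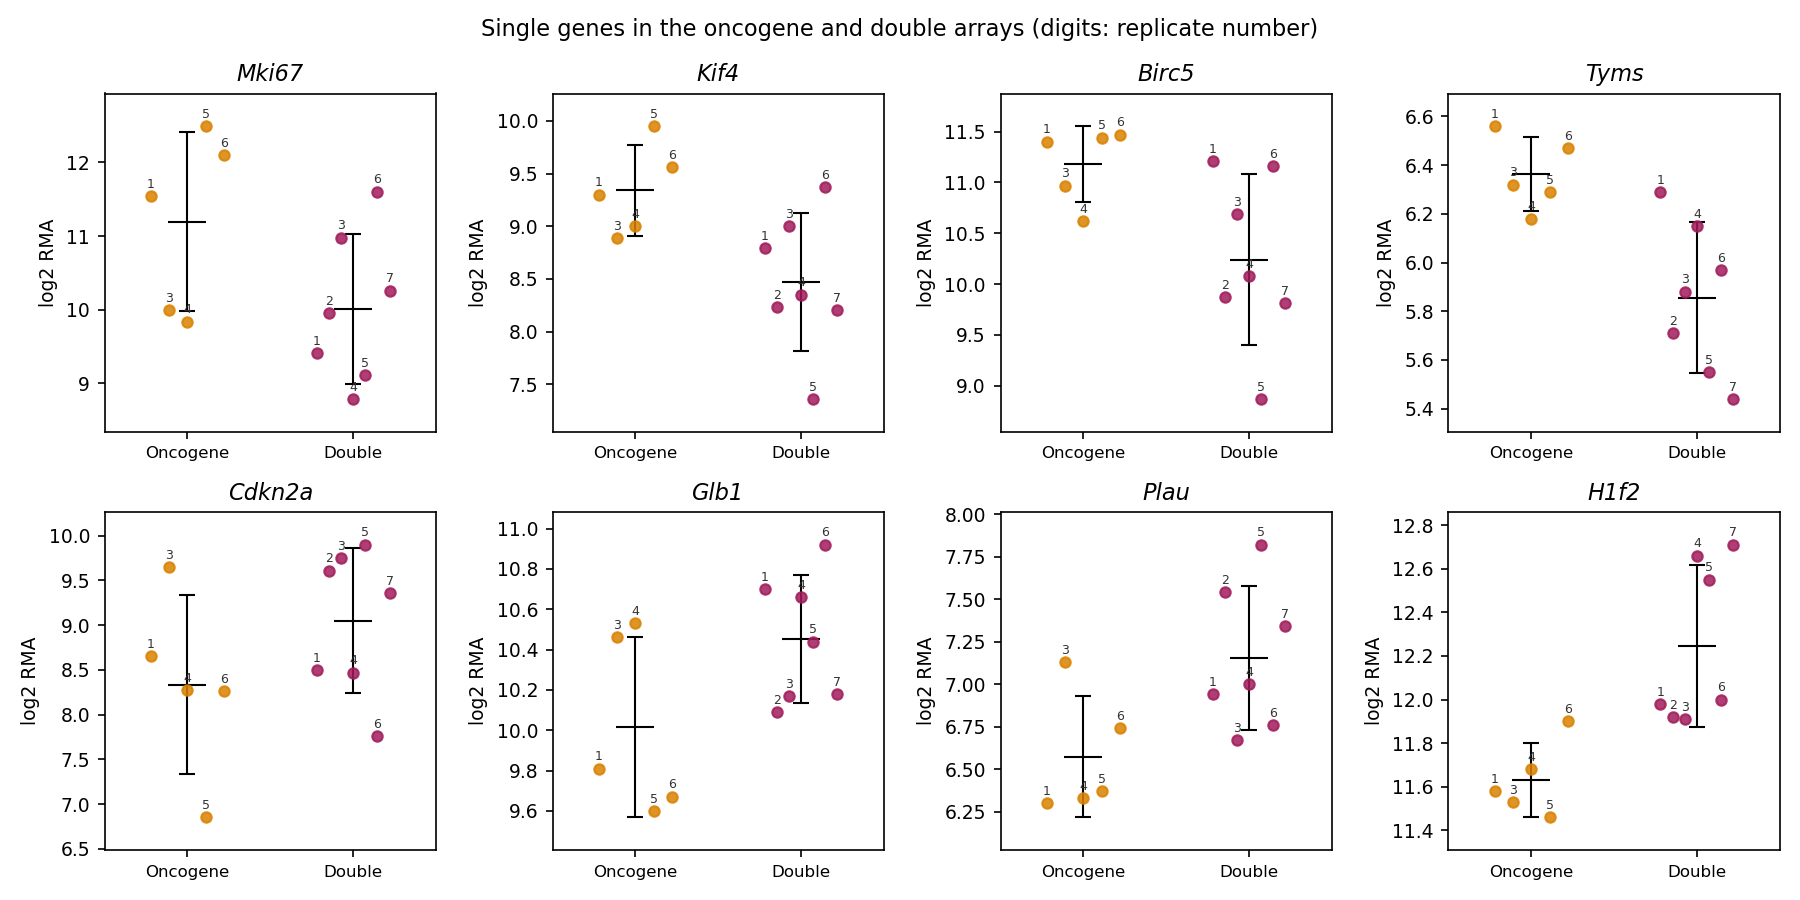
RMA log2 levels of 8 genes in the 5 oncogene and 7 double arrays; points are arrays with their replicate number, and lines are the mean ± SD. The double arrays reached down to 7.36 for Kif4 and 8.87 for Birc5, below every oncogene array, and H1f2 alone of the 8 had no overlap.

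The direction of the mitosis list did not depend on any 1 array, whereas its count of members at an unadjusted p below 0.05 did. All 38 members were lower when each of the 22 arrays was left out in turn, with medians of -0.98 to -0.69. The count of 29 was 11 without double replicate 5, 11 without oncogene replicate 5, 13 without oncogene replicate 6, 14 without oncogene replicate 1, 16 without double replicate 7 and 17 without double replicate 2. Without oncogene replicate 4 and double replicate 4 the median was -0.97 and the count 35, and without double replicate 2 and Wt1-null replicate 2 they were -0.80 and 25. Xist, among the 12 arrays, was high in double arrays alone, so its level and the group overlap and cannot be told apart. The 5 double arrays with high Xist averaged 9.57 for mitosis, from 8.64 (replicate 5) to 10.53 (replicate 6). The 2 double arrays with low Xist averaged 9.75. With the Xist level as a covariate the median of the mitosis list was -0.40, with 36 of 38 members lower and 0 at an unadjusted p below 0.05. In the low Xist arrays alone (2 double, 5 oncogene) it was -0.72, with 38 of 38 lower. Of these 2 double arrays, replicate 3 (10.08) lay within the oncogene range. The other was replicate 4 (9.42), the array with the lowest mean correlation with the others. A fit to the 12 compared arrays alone gave 19 members at an unadjusted p below 0.05, and a fit within 1 set of neighbouring accessions (7 double and 4 oncogene arrays) gave 6, with a median of -0.87. Between Wt1-null (Cre virus) and control (GFP virus) arrays without the oncogene, mitosis had a median difference of 0.04, with 14 of 38 lower. For this list Wt1-null replicate 2, nearly identical to double replicate 2, averaged 9.24. The other Wt1-null arrays averaged 9.91 to 11.15 and the control arrays 10.01 to 10.67. In the test that the effect of Wt1 loss differed with the oncogene, 0 members passed the adjusted threshold.

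Genes of DNA replication, which license origins, unwind and copy DNA or make nucleotides, were lower at all 38 measured members, with a median of -0.57 and 9 at an unadjusted p below 0.05 (1.76% of all genes in that direction). The list averaged 9.89, 9.74, 9.90, 10.54 and 10.35 in the oncogene arrays and 9.91, 8.87, 9.66, 9.63, 8.75, 10.35 and 9.48 in double replicates 1 to 7. Of the double arrays, 5 lay below every oncogene array, and replicates 1 and 6 did not. Tyms, thymidylate synthase, read 6.56, 6.32, 6.18, 6.29 and 6.47 against 5.44, 5.88 and 6.29 at the lowest, median and highest double array. Its difference of -0.51 ± 0.14 (SE) had the smallest p of the list, but its 3 other probe sets gave -0.35 to 0.15. Double replicate 1 was the only double array inside the oncogene range for Tyms.

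Gins1 and Gins3, subunits of the GINS complex of the replicative helicase, differed by -0.85 ± 0.35 (SE) and -0.43 ± 0.18 (SE). A second probe set gave -0.02 for Gins1 and -0.39 for Gins3. Dut, the dUTPase that keeps uracil out of DNA, differed by -0.45 ± 0.20 (SE). The 6 subunits of the MCM helicase, Mcm2 to Mcm7, gave -0.40, -0.72, -0.61, -0.75, -0.63 and -0.47, of which Mcm6 and Mcm7 had an unadjusted p below 0.05. The smallest differences of the list were -0.25 for the origin recognition subunit Orc6 and -0.28 for the primase subunit Prim2. The count of 9 was 1 without oncogene replicate 5 or 6, 2 without double replicate 5, 3 without oncogene replicate 1 or double replicate 2, 5 without double replicate 3 or 7, 15 without Wt1-null replicate 2 and 24 without double replicate 6. With the Xist level as a covariate, DNA replication genes had a median of -0.12, with 30 of 38 lower.

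**Figure D2:**
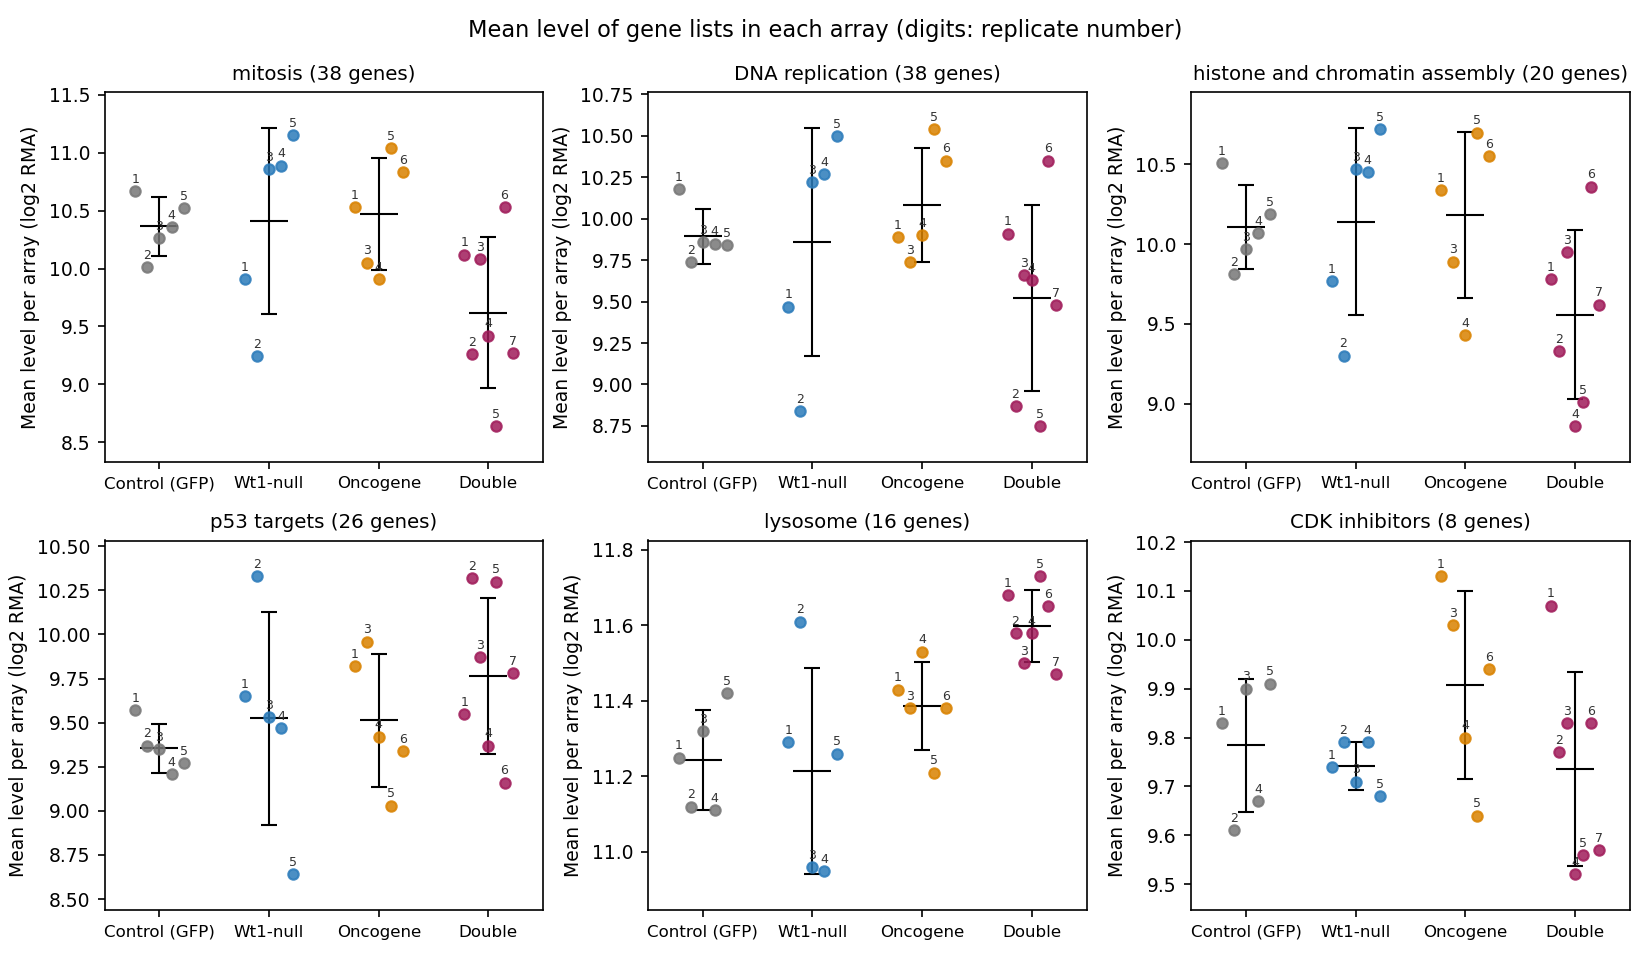
Mean RMA log2 level of 6 gene lists in every array of the 4 groups; points are arrays with their replicate number, and lines are the mean ± SD. The double arrays spread from 8.64 to 10.53 for mitosis, and 5 of the 7 lay above every oncogene array for the lysosome list.

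Chromatin genes used in S phase and mitosis showed the same direction. All 20 members of the histone and chromatin assembly list were lower (median -0.64), with 7 at an unadjusted p below 0.05 (1.76% of all genes). Cbx5, the heterochromatin protein HP1 alpha, read 11.15, 10.89, 10.70, 11.18 and 11.07 in the oncogene arrays and 9.48, 10.46 and 10.88 at the lowest, median and highest double array, a difference of -0.66 ± 0.18 (SE). Double replicate 6 alone reached above the lowest oncogene array. Its 4 other probe sets gave -0.38 to -0.01. Lbr, the lamin B receptor of the inner nuclear membrane, differed by -0.84 ± 0.31 (SE), and Lmnb1, lamin B1, by -0.36 ± 0.18 (SE) with -0.77 at its other probe set. The count of 7 in the histone and chromatin assembly list was 13 and 11 without oncogene replicate 4 and double replicate 6. It was 2 and 3 without oncogene replicates 5 and 6, and 4, 3 and 4 without double replicates 2, 5 and 7. H1f2, a linker histone gene that is no member of the list, differed the other way, as described with the single genes.

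The DNA damage repair list was lower at all 21 measured members (median -0.50), with 7 at an unadjusted p below 0.05 (1.76% of all genes). Timeless, a replication fork protection protein, read 9.30, 8.82, 9.28, 9.57 and 9.39 in the oncogene arrays and 7.90, 8.61 and 9.41 in the double arrays as before, a difference of -0.59 ± 0.22 (SE). Its second probe set gave -0.67, and double replicates 4 and 6 overlapped the oncogene arrays. The mismatch repair gene Msh6 lay at the other end of the list with -0.03 ± 0.12 (SE). The count of 7 in the DNA damage repair list was 13 without oncogene replicate 4, 12 without double replicate 6, 1 and 2 without oncogene replicates 5 and 6, and 2, 3 and 4 without double replicates 2, 5 and 7. With the Xist level as a covariate the medians were -0.34 for histone and chromatin assembly (20 of 20 lower) and -0.36 for DNA damage repair (19 of 21 lower).

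Regulators upstream of these genes differed less. Of 16 members of the E2F and Rb family list, 12 were lower (median -0.25), against 46.8% of all genes below 0. Of the lower members 2 had an unadjusted p below 0.05, against 1.76% of all genes in that direction. They were E2f2 at -0.27 ± 0.09 (SE), whose double mean of 4.98 was inside the background range, and E2f4 at -0.25 ± 0.10 (SE). E2f2 is an activating and E2f4 a repressive member. The G1 cyclins and their kinases had 9 of 11 lower with a median of -0.13, which was 5 of 11 and 0.02 without double replicate 4. Cdc25a, a phosphatase that activates Cdk2, differed by -0.35 ± 0.14 (SE) and Cdk2 by -0.43 ± 0.29 (SE). Ccnd1, the cyclin D1 gene and a usual target of growth signalling, read 13.17, 13.53, 13.34, 13.08 and 13.28 against 12.85, 13.22 and 13.60. Its difference was -0.02 ± 0.15 (SE), and the groups overlapped fully.

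The 8 CDK inhibitors split into 4 lower and 4 higher. Of the lower members 2 had an unadjusted p below 0.05, against 1.76% of all genes in that direction. Cdkn3, a phosphatase that removes the activating phosphate of CDKs, differed by -1.04 ± 0.41 (SE), and Cdkn1b, which encodes p27, by -0.61 ± 0.27 (SE) with 0.03 at its other probe set. Cdkn2a, which encodes an inhibitor of Cdk4 and Cdk6 and the p53 activator Arf, read 8.65, 9.65, 8.27, 6.85 and 8.26 in the oncogene arrays and 7.76, 9.36 and 9.90 in the double arrays. With a difference of 0.71 ± 0.48 (SE) the groups overlapped, since oncogene replicate 3 lay among the highest double arrays and double replicate 6 below all oncogene arrays but replicate 5. Cdkn1a, the p53 target that encodes p21, read 12.69, 13.17, 13.25, 11.81 and 12.35 against 12.06, 12.80 and 13.53, a difference of 0.27 ± 0.40 (SE) that was -0.02 with the Xist level as a covariate.

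Targets of p53 lay higher in double arrays at 23 of 26 members, with a median of 0.22, and 0 had an unadjusted p below 0.05. The list averaged 9.82, 9.96, 9.42, 9.03 and 9.34 in the oncogene arrays and 9.55, 10.32, 9.87, 9.37, 10.30, 9.16 and 9.78 in double replicates 1 to 7. The difference of 0.25 was smaller than the pooled SD of 0.42, with double replicates 2 and 5 above every oncogene array. The largest differences, 0.85 ± 0.75 (SE) for the desmosome and apoptosis gene Perp and 0.81 ± 0.49 (SE) for Gadd45a, a stress gene of growth arrest, were chosen after their values were seen. Epha2, a receptor kinase, differed by 0.28 ± 0.16 (SE), and Ckap2, a spindle protein and a p53 target by report, by -0.58 ± 0.31 (SE). Across the arrays the p53 target and mitosis levels ran in opposite order at the ends. Double replicates 2 and 5, the lowest for mitosis, were the highest for p53 targets, and oncogene replicate 5 and double replicate 6, among the 4 highest for mitosis, were the lowest. With the Xist level as a covariate 14 of 26 p53 targets were higher (median 0.06).

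**Figure D3:**
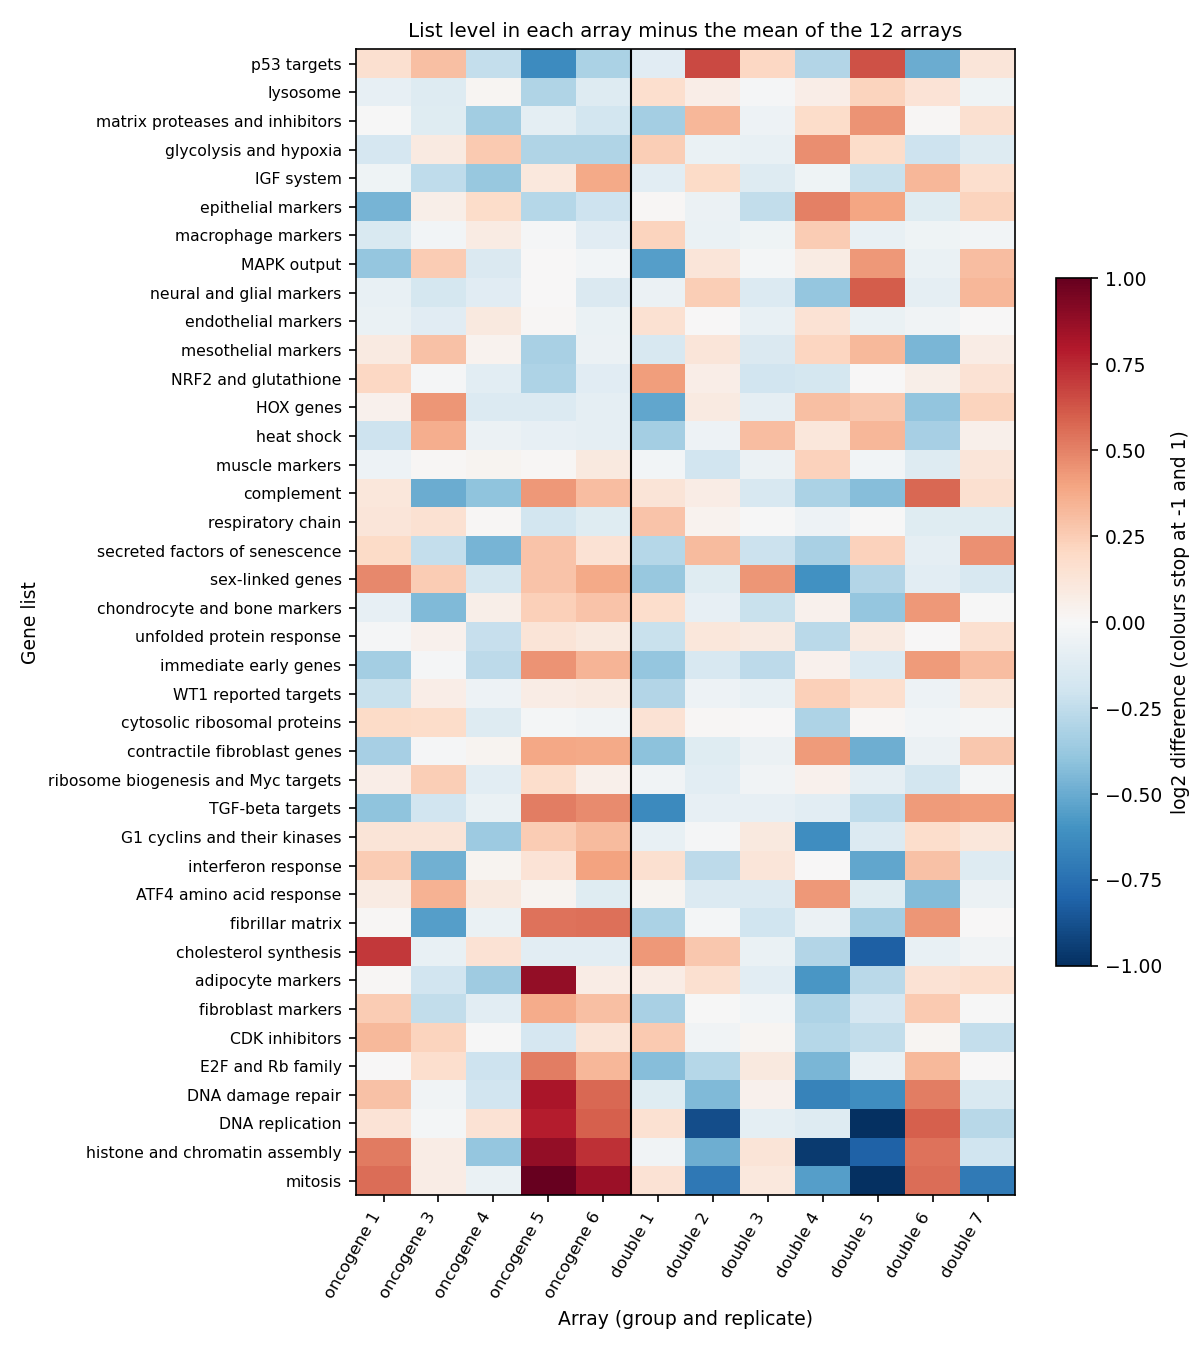
Mean level of each of the 40 gene lists in the 12 arrays, minus its mean over them (log2; red higher, blue lower), with lists ordered by median difference. For mitosis double replicate 5 (8.64) and double replicate 2 (9.26) were the lowest and oncogene replicate 5 (11.04) the highest. For p53 targets double replicates 2 (10.32) and 5 (10.30) were the highest and oncogene replicate 5 (9.03) the lowest.

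Lysosome genes lay higher in double arrays at 15 of 16 members (median 0.21, against 53.2% of all genes above 0), and 2 had an unadjusted p below 0.05, against 1.32%. Its level was 11.43, 11.38, 11.53, 11.21 and 11.38 in the oncogene arrays and 11.68, 11.58, 11.50, 11.58, 11.73, 11.65 and 11.47 in double replicates 1 to 7, a difference of 0.21 with a pooled SD of 0.10. Double replicates 3 and 7 overlapped the oncogene arrays, and the other 5 were above them. Glb1, the lysosomal beta-galactosidase whose activity is stained as a senescence marker, read 9.81, 10.46, 10.53, 9.60 and 9.67 against 10.09, 10.44 and 10.92, a difference of 0.44 ± 0.19 (SE). Oncogene replicates 3 and 4 lay within the double range for Glb1. Ctsd, the protease cathepsin D, differed by 0.35 ± 0.17 (SE). The count of 2 was 0 without oncogene replicate 5 or double replicate 6, and 1 without oncogene replicate 1, 3 or 4, double replicate 1, 2, 5 or 7, or several arrays of the other groups. The lysosome list had a median of 0.07 with the Xist level as a covariate (13 of 16 higher) and was 0.14 in the low Xist arrays alone.

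Matrix proteases and their inhibitors were higher at 13 of 18 members (median 0.17, against 53.2% of all genes above 0), and 2 had an unadjusted p below 0.05, against 1.32%. The count in either direction was 4 without oncogene replicate 3, double replicate 4 or Wt1-null replicate 2, and 3 without oncogene replicate 1, double replicate 1 or double replicate 6. For the list mean 5 of 7 double arrays were above every oncogene array, 10.81 ± 0.26 (SD, n = 7) against 10.55 ± 0.13 (SD, n = 5). Plau, the urokinase plasminogen activator, read 6.3, 7.13, 6.33, 6.37 and 6.74 in the oncogene arrays and 6.67, 7.00 and 7.82 in the double arrays. Its difference was 0.58 ± 0.18 (SE), with 0.64 at its other probe set, and oncogene replicates 3 and 6 overlapped the double arrays. Mmp19, a matrix metalloprotease, differed by 0.71 ± 0.27 (SE). Of the secreted factors of senescence 10 of 22 were higher, with a median of -0.02. Icam1, a leukocyte adhesion molecule, was at 0.75 ± 0.41 (SE).

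Lists of growth signalling differed little between the groups, which share the oncogene. MAPK output genes, the targets and feedback inhibitors of ERK signalling, had 14 of 20 members higher with a median of 0.08 and 0 at an unadjusted p below 0.05. Spry4, a feedback inhibitor, differed by 0.41 ± 0.24 (SE). Immediate early genes had 8 of 19 higher (median -0.04) and Btg1, an antiproliferative member, differed by 0.39 ± 0.21 (SE). Of 14 IGF system genes 9 were higher (median 0.10), and Igfbp6, a binding protein that prefers IGF2, differed by -0.47 ± 0.13 (SE). Igfbp6 read 11.04, 11.03, 11.08, 10.52 and 11.14 in the oncogene arrays and 10.20, 10.47 and 10.98 in the double arrays, so that oncogene replicate 5 alone lay among the double arrays.

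Matrix and contractile genes, which TGF-beta raises in fibroblasts, had medians just below 0 that in part rested on single arrays. Fibrillar matrix genes were lower at 19 of 25 (median -0.17), contractile fibroblast genes at 15 of 18 (-0.10), TGF-beta targets at 17 of 21 (-0.12) and fibroblast markers at 11 of 15 (-0.19), with 0 members at an unadjusted p below 0.05 in each. TGF-beta targets turned to a median of 0.02 without oncogene replicate 5 (9 of 21 lower) or 6 (10 of 21) and to 0.04 without double replicate 1 (10 of 21). With the Xist level as a covariate the contractile fibroblast genes had a median of 0.13, with 16 of 18 higher, and in low Xist arrays alone 0.10. Col1a1, the main chain of type I collagen, differed by -0.33 ± 0.24 (SE), Smad6, an inhibitor of BMP signalling, by -0.56 ± 0.49 (SE) and the mesenchymal factor Twist1 by -0.39 ± 0.25 (SE). The fibrillar matrix level was 12.74, 12.75 and 12.64 in oncogene replicates 5 and 6 and double replicate 6, and 11.65 to 12.21 in the other 9 arrays. The same 3 arrays were the highest for the chondrocyte and bone markers.

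**Figure D4:**
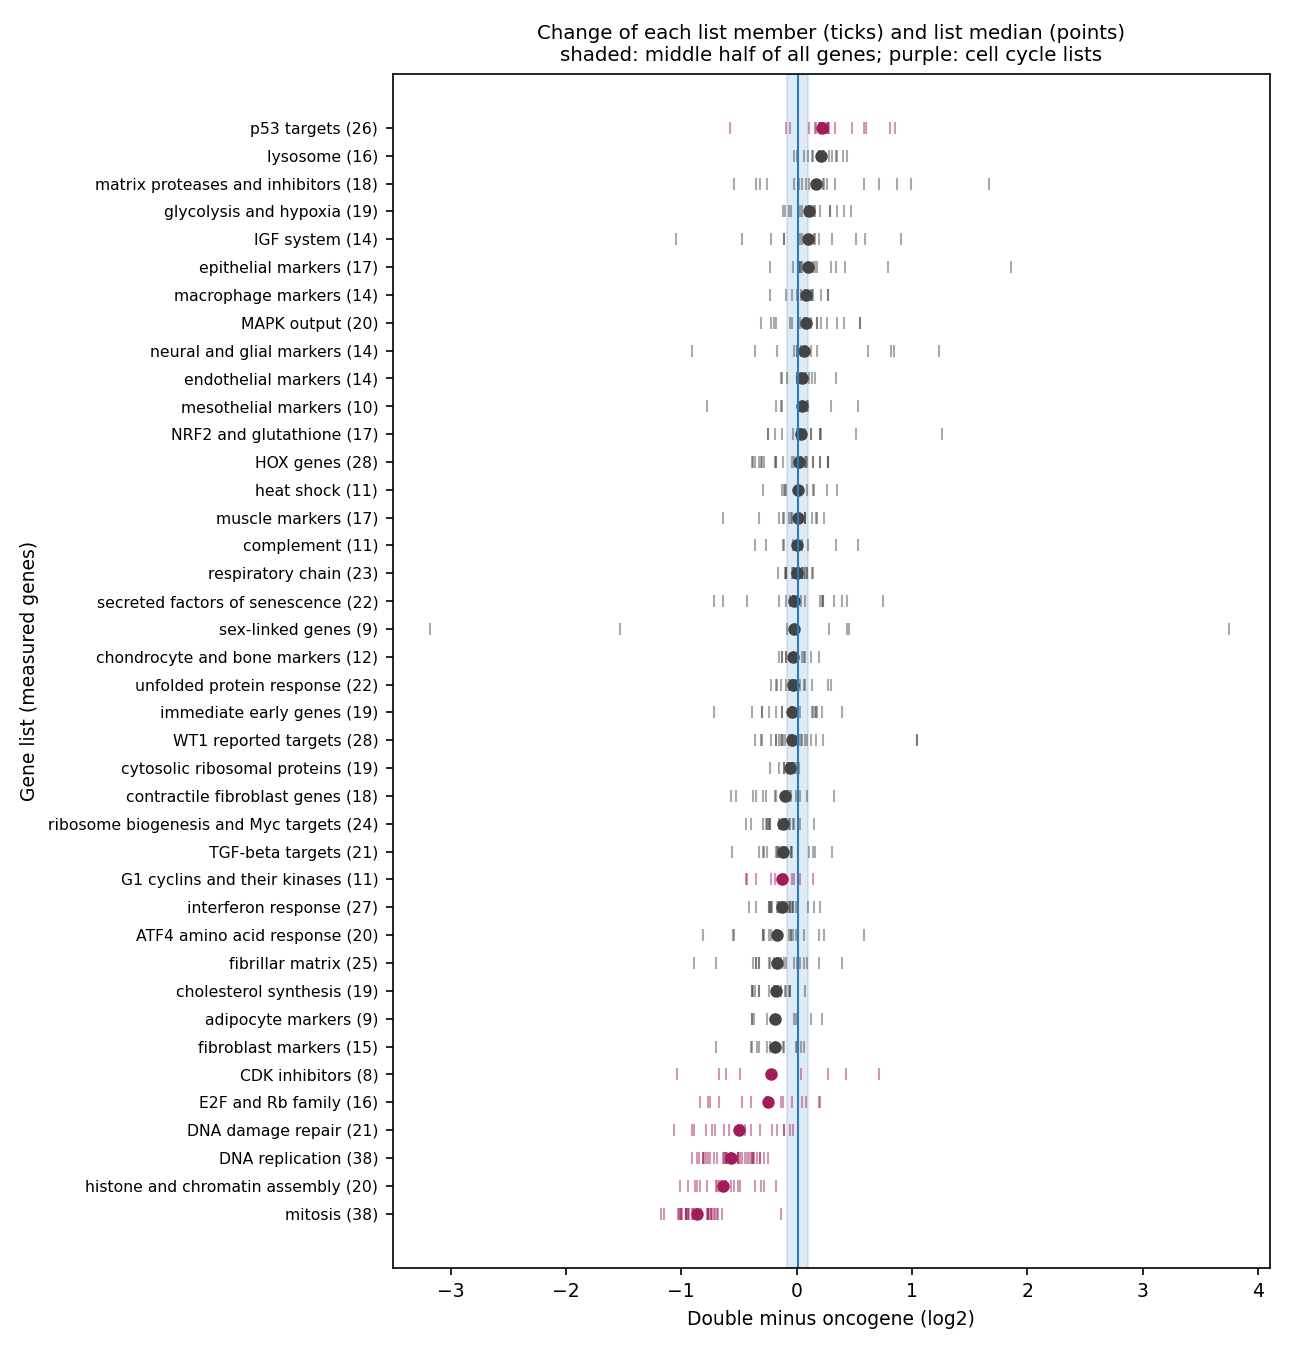
Log2 difference, double minus oncogene, of every measured member (ticks) and the median (points) of 40 gene lists; the band holds the middle 50% of all genes. The medians of mitosis (-0.86), histone and chromatin assembly (-0.64), DNA replication (-0.57) and DNA damage repair (-0.50) were the 4 lowest, followed by E2F and Rb family at -0.25, and the p53 target list (0.22) and lysosome list (0.21) had the highest medians.

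Metabolic and stress lists had small medians. Cholesterol synthesis genes were lower at 18 of 19 (median -0.18), although 11 of 19 were lower without oncogene replicate 1, and Sqle, squalene epoxidase, differed by -0.39 ± 0.18 (SE). Genes of the ATF4 amino acid response were lower at 16 of 20 (median -0.17), with Psat1, of serine synthesis, at -0.54 ± 0.22 (SE). Ribosome biogenesis and Myc targets were lower at 22 of 24 (median -0.12), and Nop56, a nucleolar RNA processing protein, was at -0.44 ± 0.17 (SE). In double arrays Nop56 ran from 10.54 to 10.88, whereas oncogene replicate 4 had 10.58 and the other oncogene arrays 11.05 to 11.55. Genes of glycolysis and hypoxia were higher at 15 of 19 (median 0.11), or 10 of 19 (0.02) without double replicate 4. The medians were 0.04 for NRF2 and glutathione genes, 0.01 for heat shock, -0.03 for the unfolded protein response, 0.00 for the respiratory chain, -0.06 for cytosolic ribosomal proteins and -0.13 for the interferon response.

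Sod3, an extracellular superoxide dismutase in the NRF2 and glutathione list, read 8.24, 7.40, 8.12, 7.60 and 7.59 in the oncogene arrays and 6.5, 9.39 and 10.19 at the lowest, median and highest double array. Its difference was 1.26 ± 0.45 (SE), with 1.09 at its other probe set. Double replicate 3 was below all oncogene arrays and the other 6 double arrays were above them.

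Reported targets of WT1 showed no common direction, with 16 of 28 lower and a median of -0.04. Aldh1a2, which makes retinoic acid, had the smallest p of that list, with 4.71, 6.15, 6.07, 4.94 and 5.15 in the oncogene arrays and 5.23, 6.35 and 7.90 in the double arrays. Its difference was 1.04 ± 0.37 (SE), and oncogene replicates 3 and 4 lay inside the double range. HOX genes had 15 of 28 higher (median 0.02).

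The arrays held fibroblast RNA by their markers: the 15 fibroblast markers averaged 12.51 to 13.21 in the 12 arrays. Markers of other cell types had medians of 0.10 (epithelial, 15 of 17 higher), 0.05 (mesothelial, 6 of 10), 0.05 (endothelial, 10 of 14), 0.08 (macrophage, 11 of 14), 0.01 (muscle, 9 of 17), -0.03 (chondrocyte and bone, 5 of 12), -0.19 (adipocyte, 2 of 9, or 6 of 9 without oncogene replicate 5) and 0.06 (neural and glial, 10 of 14). Cdh1, the epithelial cadherin, read 4.07 in both groups, Pecam1, of endothelium, 4.59 in both, and Ptprc, of leukocytes, 4.44 and 4.51, all inside the background range. Other members read above that range, such as Esam (endothelial, double mean 6.24, oncogene 5.90) and Fcer1g (macrophage, 6.43 and 6.22). In the 12 arrays the list means were 5.78 to 6.05 for endothelial and 5.81 to 6.22 for macrophage markers. Epithelial marker levels were 5.83 to 6.48 in the oncogene and 6.05 to 6.80 in the double arrays. Dsp, the desmosomal protein desmoplakin, read 4.47, 7.08, 6.29, 5.06 and 5.96 in the oncogene arrays and 6.35, 7.44 and 9.77 in the double arrays, a difference of 1.86 ± 0.56 (SE). Its other probe sets gave 0.03 and 1.89, and oncogene replicate 3 overlapped the double arrays. The part of other cell types in these differences was not tested.

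Over all genes, 16 (0.0879%) had no overlap between the double and oncogene arrays, 10 lower (0.055%) and 6 higher (0.033%) in double arrays. The count was 133 without oncogene replicate 4, 53 without double replicate 4, 23 without double replicate 7 and 25 to 43 without any 1 of the other 9 arrays. Leaving out an array can only keep or raise this count. H1f2 read 11.58, 11.53, 11.68, 11.46 and 11.90 in the oncogene arrays and between 11.91 and 12.71 in the double arrays. The difference was 0.62 ± 0.15 (SE; limma adjusted p = 1.0), and its other probe sets gave 0.05 and 0.71. Other genes without overlap were Lpcat2, a lysophospholipid acyltransferase, at 0.66 ± 0.19 (SE), Cercam at 0.73 ± 0.23 (SE) and the MCM-binding protein gene Mcmbp at -0.34 ± 0.14 (SE). Slc25a31, whose double arrays (3.76 to 4.09) were all inside the background range, was at -0.69 ± 0.17 (SE).

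The other genes with the smallest p were Tmem230 (0.55 ± 0.14, SE), Rnf41 (0.84 ± 0.22), the neuropeptide Adcyap1 (1.01 ± 0.28), Acad8 (0.53 ± 0.15) and Slitrk5 (1.33 ± 0.38) among the higher. Among the lower were Igfbp6, B4galnt2 (-0.27 ± 0.07), Ankle1 (-0.87 ± 0.24), Oas1c (-0.40 ± 0.11) and Klk10 (-0.77 ± 0.21).

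Array-to-array spread was larger in the double group with all arrays, but not without double replicate 4. The median SD over genes was 0.291 in the 7 double, 0.245 in the 5 oncogene, 0.178 in the 5 control and 0.2 in the 5 Wt1-null arrays. The SD was larger in double than in oncogene arrays for 66.0% of genes, and 610 genes had an SD above 1 in double against 337 in oncogene arrays. Without double replicate 4 the direction turned, with a median SD of 0.221 in double against 0.245 in oncogene arrays and a larger SD in double arrays for 44.0% of genes. Without replicate 4 of both groups it was 58.9% with median SDs of 0.221 and 0.194. For mitosis the median SD of the members was 0.8 in double and 0.51 in oncogene arrays, and it was larger in double arrays for 32 of 38 members. The SD of the difference between 2 arrays had a median of 0.593 within the double group, 0.508 within the oncogene group and 0.551 between the groups.

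**Figure D5:**
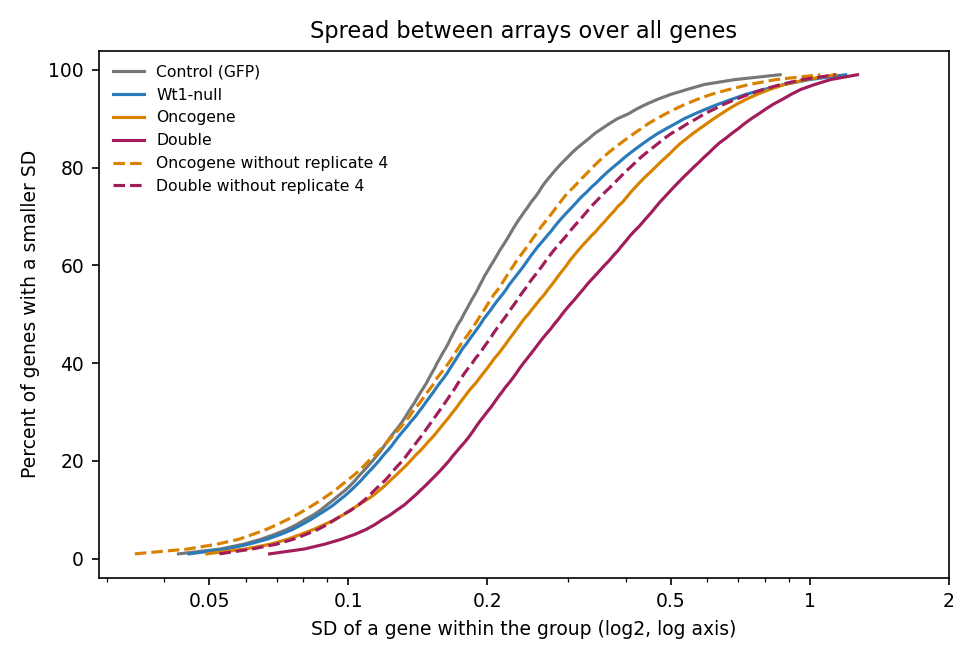
Percent of genes (vertical axis) with an SD below the value on the horizontal log axis (log2 units), for the 4 groups and without replicate 4 of the double and oncogene groups. The double curve lay furthest right, with a median SD of 0.291, and at 0.221 without replicate 4.

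Single genes differed by several log2 units within the double group. Among genes with a mean of at least 7, the 6 with the largest SD in double arrays were Tslp, Coch, Ctse, Mcpt8, Hoxc8 and Dynap. Mcpt8, a granule protease of basophils, read 9.81, 11.57, 8.78, 7.79 and 8.40 in the oncogene arrays and 7.72, 11.55 and 13.11 in the double arrays. Hoxc8, a homeobox gene of the trunk, read 9.07, 9.21, 6.81, 8.04 and 7.99 against 4.90, 7.72 and 10.08, and the cytokine gene Tslp 9.27, 8.51, 9.71, 12.57 and 11.27 against 5.20, 10.48 and 11.88. The group differences were 1.35 ± 0.97 (SE) for Mcpt8, -0.28 ± 0.88 for Hoxc8 and -0.21 ± 0.94 for Tslp, each smaller than the spread within the double group. Hoxc8 was lowest in double replicates 1 and 6 and highest in replicates 5 and 7.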

How the data were processed

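RNA of MEFs was hybridised to Affymetrix whole-genome mouse expression arrays, 1 sample per array. The authors deposited log2 values of 45101 probe sets, made with RMA in Affymetrix Expression Console per the submitters' processing notes, and the version is not given in the sources used here. RMA subtracts background, quantile-normalizes and summarises probes together, so a change of overall RNA amount is removed. Values ran from 3.29 to 15.14 with array medians of 6.23 to 6.33, and detection calls and scan dates were not used. Precision is limited by the number of arrays. The series' design text counts 6 oncogene arrays, and 5 were analysed here.

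Control probe sets (64) and the 932 with several genes were left out. RefSeq tables of GRCm38.p6 held 34741 of the 34945 single-gene probe sets, and each of 18193 genes took its probe set with the highest mean. The 4 group means were fitted over all 22 arrays with limma 3.58.1 (lmFit, eBayes) in R 4.3.3, with Benjamini-Hochberg adjustment over all genes, and summaries were made in Python 3.11.15. A call is an adjusted p below 0.05. The fit was tested on simulated data. Replicates' origin from separate embryos is not stated, so p-values reflect only variation among these arrays, which may be technical.

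The 40 gene lists (730 of 791 genes measured) and the comparison were chosen with earlier results of these data known. Named genes were, by rule, the 4 members with the smallest p of the mitosis and DNA replication lists, 2 of the other cell cycle lists and 1 of each other list. The rule also took Wt1, Xist, Mki67, Cdkn1a, Cdkn2a, Ccnd1 and Lmnb1, the 6 genes with the smallest p in each direction, up to 10 whose arrays did not overlap, and the 6 with the largest SD in double arrays among genes with a mean of at least 7. Other members, such as Bub3, Prim2, Orc6, Msh6, Perp, Gadd45a, Ctsd, Mmp19, Cdh1, Pecam1, Ptprc and the MCM subunits, were chosen after their values were seen. A level within that of 3 Y-linked genes in arrays with high Xist was taken as background. Motifs were searched as exact letters on both strands. There were 40 alternatives, 22 of which left out 1 array each. The name of the oncogene and 1 repair gene are not reported here.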

Additional observations from a re-analysis of the deposited data

Results flagged for a closer look

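An array far from the rest of its group was looked for in 242 groups of values (list levels and named genes), and 17 were found. Chance would give about 1 in 20 separate groups, but these groups share arrays, so whether 17 exceeds chance was not tested. Of these, 10 were replicate 4 of either group. The G1 cyclin list was 10.26 in double replicate 4, with the next array at 10.75, and 10.52 in oncogene replicate 4, with the next at 11.01. Double replicate 4 was also low for cytosolic ribosomal proteins (12.96, next 13.24), for the ER chaperone gene Dnajb9 (10.01, next 11.19) and for Tslp (5.2, next 9.68), and high for the Fc receptor chain Fcer1g (6.88, next 6.48). Oncogene replicate 4 was low for the mitochondrial chaperone Hspd1 (12.52, next 13.36), for Lpcat2 (6.35, next 6.49) and for Vmn1r56 (4.96, next 5.04), and high for Icam1 (9.51, next 8.70).

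In other arrays, oncogene replicate 3 was high for the heat shock list (12.41, next 11.99) and for Acad8 (8.97, next 8.65). Oncogene replicate 5 was low for Igfbp6 (10.52, next 11.03) and high for the fatty acid transporter Cd36 (5.28, next 4.37). Double replicate 1 was high for the respiratory chain (12.80, next 12.55), double replicate 3 low for Sod3 (6.5, next 9.04) and double replicate 5 low for Sqle (9.91, next 10.69).

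Without the oncogene, Wt1-null cells got Cre virus and control cells GFP virus, so Wt1 loss and virus cannot be told apart there. The effect called that of Wt1 loss differed with the oncogene for 2 genes. For Trib3, a pseudokinase induced by ATF4, it was 0.24 with and -3.22 without the oncogene, a difference of 3.46 ± 0.53 (SE; limma adjusted p = 0.0167). For Car6, a secreted carbonic anhydrase, it was -0.07 and -2.17, a difference of 2.09 ± 0.32 (SE; limma adjusted p = 0.0167). The count of such genes was 0 without Wt1-null replicate 3, 4 or 5, control replicate 2 or 3, or oncogene replicate 6, with the near-identical Wt1-null replicates 3 and 4 averaged, and with the Xist level as a covariate. Neither gene separated double from oncogene arrays.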

How the results depend on the processing

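No gene was called between double and oncogene arrays under any of the 40 alternatives, which included repeated quantile normalization and median centring. The count at an unadjusted p below 0.05 (562) was 1103 with every probe set on its own, 2115 with array weights, 320 within 1 set of neighbouring accessions (7 double, 4 oncogene), 980 without oncogene 4 and double 4, and 330 to 1150 with 1 array left out. The count without overlap (16) was 35 with every probe set on its own and 7 for genes with a mean of at least 6. It was 184 without oncogene 4 and double 4, 25 without double 2 and Wt1-null 2, and 37 within the accession set. It was 675 in the low Xist arrays (2 double, 5 oncogene) and 23 to 133 with 1 of the 12 compared arrays left out. With fewer arrays this count can only stay or rise, so counts from unlike numbers of arrays cannot be compared directly. The 2 genes of the difference with the oncogene were 4 with every probe set, 2748 with array weights and 1 with a mean of at least 6, the replicate block, the random accession block or low Xist arrays. They were 0 with a limit of 1 on the log2 change, without oncogene 4 and double 4, without double 2 and Wt1-null 2, with Wt1-null 3 and 4 averaged or with the Xist covariate, and 0 to 5 with 1 array left out.

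Over the 16 alternatives besides left-out arrays that can move a list median, 634 medians stayed within the spread between arrays and 6 did not: ATF4 amino acid response 0.20, endothelial markers 0.17 and sex-linked genes -0.34 in low Xist arrays, sex-linked genes 0.28 with a mean of at least 6, and ribosome biogenesis 0.04 and lysosome 0.07 with the Xist covariate. Medians that stayed within that spread could still move. With the Xist covariate those of mitosis, DNA replication, histone and chromatin assembly, DNA damage repair and p53 targets shrank, as given above. That of contractile fibroblast genes changed sign. Genes that changed sign were Dnajb9 (-0.21), Wt1 (0.03) and Ctse (-0.35) in low Xist arrays and Cdkn1a (-0.02) with the Xist covariate. Ccnd1 was 0.05 with probe sets averaged, 0.07 with array weights and 0.06 without oncogene 4 and double 4, which gave 0.46 for Tslp. Hoxc8 was 0.37 with array weights and 0.15 with the accession set as a fixed block. Dynap was -0.31 with the replicate block, -0.07 within the accession set and -0.03 with the Xist covariate. With 1 array left out Ccnd1 ran from -0.08 to 0.05, Tslp from -0.65 to 0.60, Coch from -0.80 to 0.42, Hoxc8 from -0.64 to 0.23 and Dynap from -0.22 to 0.68. The cause was not tested.

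Same-numbered arrays of both groups correlated at 0.15, 0.179, 0.773, -0.144 and 0.622 (replicates 1, 3, 4, 5 and 6), so the numbers were not shown to pair the samples, and not every array correlated best with its own number. With the replicate block 416 genes had an unadjusted p below 0.05, 0 were called, and the mitosis median was -0.63 with 5 members below 0.05. Within the accession set the mitosis median was -0.87 with 6 members. Signals near the background range limit what can be read for Wt1, E2f2, Slc25a31 and the defining markers of other cell types.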

Other observations

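Differences that ran across both groups joined several lists. Oncogene replicates 5 and 6 and double replicate 6 had the 3 highest levels of fibrillar matrix genes and, at 11.50, 11.46 and 11.41, of TGF-beta targets, though double replicate 7 was close at 11.40. The nearest array to double replicate 6 was oncogene replicate 6, with an SD of their difference over genes of 0.29, below that between any 2 double arrays. Wt1-null replicates 3 and 4 differed by an SD of 0.149, close to that of double replicate 2 and Wt1-null replicate 2.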
